A study of Mus musculus with 4 samples.

Results

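The genes described here are interferon-stimulated genes, the antiviral and regulatory genes that cells switch on when interferon signals reach the nucleus. A list of 47 such genes was matched by gene symbol to the probe sets of an Affymetrix mouse gene array, and where a gene had several probe sets the one with the highest mean was kept. Of the 47 listed genes, 44 had a probe set that carries their symbol alone, out of 19938 genes measured in this way on the array. Isg15 and Gbp2 lie on probe sets that carry several symbols, and they were dropped together with Ifi44, which was not analysed here. Tmem173 (STING) and Mb21d1 (cGAS) were found under their current symbols, Sting1 and Cgas. The rule used no difference between the samples, but the list was chosen with earlier results of these data known.

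RNA was hybridized from 4 clonal tumor cell lines, with 1 array for each line. M1 and M2 are mesenchymal-like (M) lines and E2 and E1 are epithelial (E) lines, and all were cloned by limiting dilution from a single spontaneous mammary tumor of a female FVB Tg MMTV/neu mouse (FVB/N in the methods), whose rat ErbB2 (neu) transgene is driven by the mammary tumor virus promoter. M cells were sorted as low for neu and CD24 and kept in a serum-poor mammary epithelial growth medium with pituitary extract, EGF, insulin and hydrocortisone. E cells were sorted as high for both and kept in serum-rich RPMI, and cell type and culture medium therefore cannot be told apart, whereas M1 and M2 share a medium, as do E2 and E1. Of the lines, M1 alone did not form tumors when implanted. The sources used here do not say whether any line was treated with interferon, whether reporter-carrying derivatives were arrayed, or whether a line was grown more than once. The p-values below therefore measure the spread between clones, part of which may be technical.

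As background, type I interferons (the IFN-alpha family and IFN-beta) bind the receptor Ifnar1 and Ifnar2, and the kinases Jak1 and Tyk2 then activate STAT factors, Stat2 among them. Stat2 and Irf9 are parts of the ISGF3 complex, which binds the interferon-stimulated response element in the promoters of its target genes. Interferon-gamma acts on a different promoter sequence, the gamma-activated site. Many target genes encode proteins that sense viral nucleic acid, cut or edit RNA, or block viral entry and assembly, and several of them (Irf7, Stat2, Irf9 and the sensors) are parts of the pathway itself.

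The arrays were even in overall level, with a median log2 expression of 6.75 in M1 and 6.85 in M2, against 6.75 in E2 and 6.76 in E1. The E-cadherin gene Cdh1 was lower in M lines, at 6.70 in M1 and 6.51 in M2 against 12.31 in E2 and 12.15 in E1 (limma adjusted p = 0.00252), and 4 of 9 epithelial genes and 4 of 8 mesenchymal genes passed the test in the direction of the labels, although the keratin genes Krt8 and Krt18 were at similar levels in all lines. Log2 levels are relative fluorescence of different probes, so each gene is compared between lines and never with another gene.

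To ask whether the interferon program differed between clones of the same type and medium, E2 was set against E1 and M1 against M2. E2 stood apart. Of the 44 interferon-stimulated genes, 40 were at least 2-fold higher in E2 than in E1 and 0 were at least 2-fold lower, whereas 1.25% of the 23410 probe sets with a gene symbol were 2-fold higher and 0.987% were 2-fold lower. At a 4-fold difference the count was 29 (0.406% of all probe sets), and at 8-fold it was 15 (0.192%). The median member was 2.45 log2 units (5.48-fold) higher in E2 than in E1, beside a median of 0.02 over all probe sets. Each line is 1 array, so these differences carry no test and no replicate error.

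**Figure D1:**
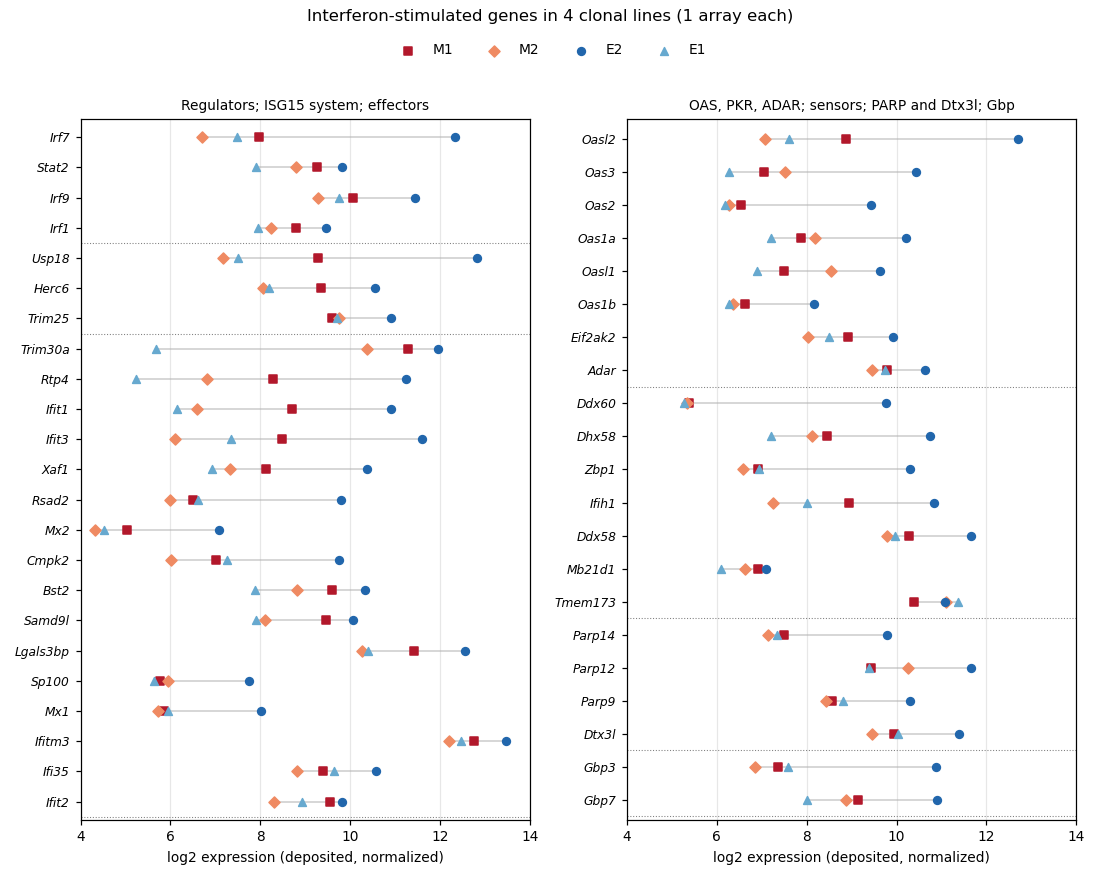
Log2 expression (horizontal axis, deposited normalized values) of the 44 interferon-stimulated genes in M1, M2, E2 and E1, 1 array each, grouped by role with dotted lines between groups and, within a group, ordered by the E2 minus E1 difference. E2 is the rightmost symbol for 43 genes, and for Tmem173 it is not.

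The high level in E2 was not only a difference from E1. E2 had the highest level of the 4 lines for 43 of 44 members (24.8% of all probe sets), and for 33 it was at least 2-fold above each of the other lines (0.585%). Against M1, 34 members were at least 2-fold higher in E2 (4.94%), and against M2, 42 were (5.31%). These comparisons share the E2 array and are not independent of each other. The median of all values on the arrays was 6.78, and 7 members lay below it in M1 and 13 in M2, against 0 in E2 and 12 in E1. At such low signal a fold difference may be understated.

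**Figure D2:**
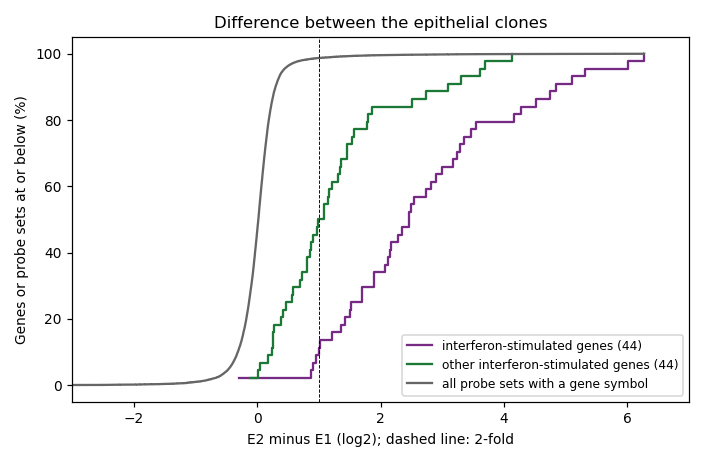
Cumulative share (vertical axis, percent) of genes or probe sets at or below each E2 minus E1 log2 difference (horizontal axis), for the 44 interferon-stimulated genes, 44 other interferon-stimulated genes and all 23410 probe sets with a symbol. The curve of the 44 members lies to the right, with a median of 2.45 against 0.02 for all probe sets.

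The promoters of these genes were examined for the response element and the gamma-activated site. RefSeq promoters (GRCm38.p6, from 250 bases before to 50 bases after the transcription start) were found for 33 of the 44 members. Usp18, Mx1, Mx2, Rtp4, Oas1b, Oas2, Dhx58, Zbp1, Tmem173, Parp9 and Parp14 had no entry matched. The core of the response element, searched on both strands as GAAA, any 2 bases and GAAA again, was present in 15 of 33 members (45.5%), and in 3.89% of the 15562 genes that had both a promoter and a probe set. The gamma-activated site, searched as TTCNNNGAA, was in 9 of 33 (27.3%) and in 9.01% of the same genes. Both motifs were found in 5 members and neither in 14, and matches of the 2 motifs overlapped at 2 places. The 8 promoters below are shown because they belong to genes among those furthest apart between E2 and E1 that hold the response element core, with Irf1 as a gene with only the gamma-activated site. Each is the 180 bases before the start, on the strand of the gene, with the motif in capitals (a core that lies on the other strand reads as TTTC, any 2 bases and TTTC).
Trim30a: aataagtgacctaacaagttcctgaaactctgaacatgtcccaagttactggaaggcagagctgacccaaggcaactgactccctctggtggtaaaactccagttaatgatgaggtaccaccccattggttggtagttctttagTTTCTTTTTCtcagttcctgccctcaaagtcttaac
Ifit1: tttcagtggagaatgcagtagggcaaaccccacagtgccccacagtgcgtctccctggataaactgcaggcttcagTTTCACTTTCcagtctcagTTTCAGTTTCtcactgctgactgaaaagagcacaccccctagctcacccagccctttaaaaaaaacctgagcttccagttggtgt
Ddx60: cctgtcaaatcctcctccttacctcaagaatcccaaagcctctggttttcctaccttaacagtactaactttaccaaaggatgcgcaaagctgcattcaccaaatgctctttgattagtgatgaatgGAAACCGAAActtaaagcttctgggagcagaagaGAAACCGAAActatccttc
Ifit3: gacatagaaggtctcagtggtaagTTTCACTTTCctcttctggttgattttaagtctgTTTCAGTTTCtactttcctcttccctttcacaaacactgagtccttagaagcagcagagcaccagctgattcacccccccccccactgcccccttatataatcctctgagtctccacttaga
Oas3: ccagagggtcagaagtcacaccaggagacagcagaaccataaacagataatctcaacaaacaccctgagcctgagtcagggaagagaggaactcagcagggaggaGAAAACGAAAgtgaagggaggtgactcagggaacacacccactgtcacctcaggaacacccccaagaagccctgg
Gbp3: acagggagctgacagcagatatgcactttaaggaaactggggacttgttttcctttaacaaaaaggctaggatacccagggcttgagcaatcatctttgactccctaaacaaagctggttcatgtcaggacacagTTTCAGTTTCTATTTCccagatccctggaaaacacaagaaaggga
Rsad2: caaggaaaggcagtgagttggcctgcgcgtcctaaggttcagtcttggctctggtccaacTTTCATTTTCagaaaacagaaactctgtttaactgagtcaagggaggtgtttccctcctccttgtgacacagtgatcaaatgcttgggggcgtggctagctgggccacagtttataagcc
Irf1: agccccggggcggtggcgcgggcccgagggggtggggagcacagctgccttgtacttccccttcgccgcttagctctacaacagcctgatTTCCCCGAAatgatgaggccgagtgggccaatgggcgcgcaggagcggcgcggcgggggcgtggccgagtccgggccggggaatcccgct

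The Trim30a stretch is chr7:104465194-104465373 (minus strand), that of Ifit1 is chr19:34640709-34640888 (plus strand) and that of Ifit3 is chr19:34583349-34583528 (plus strand). The Ddx60 stretch is chr8:61927907-61928086 (plus strand), that of Oas3 is chr5:120777660-120777839 (minus strand) and that of Gbp3 is chr3:142559864-142560043 (plus strand). The Rsad2 stretch is chr12:26456453-26456632 (minus strand) and that of Irf1 is chr11:53769834-53770013 (plus strand). Ifit1, Ddx60, Ifit3 and Gbp3 each had 2 matches to the response element core in the window shown, and the 2 in Gbp3 overlap. Members with the core had a median E2 minus E1 difference of 2.99 on the log2 scale (range 1.01 to 6.27, n = 15) and members without it 2.13 (range 0.87 to 5.09, n = 18), so the ranges overlapped. Over all genes with a promoter the medians were 0.04 with the core and 0.01 without it. Members with a gamma-activated site had a median of 1.42, and those without one 2.61. A match is a stretch of letters and not a measured binding site.

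**Figure D3:**
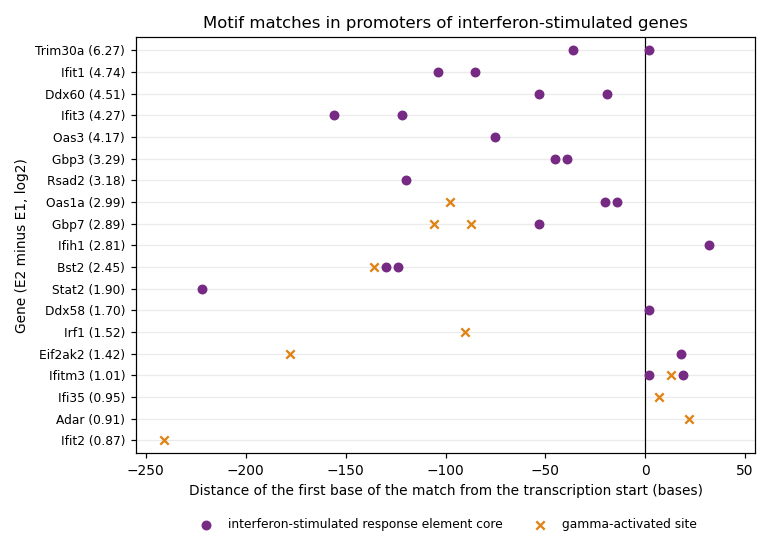
Distance in bases (horizontal axis) from the transcription start of each match to the response element core (circles) and the gamma-activated site (crosses) in the promoters of the 19 interferon-stimulated genes that hold at least 1 of the motifs, ordered by E2 minus E1 log2 difference, which stands beside each name. Among these 19 genes, the 7 with the largest difference, from 6.27 for Trim30a to 3.18 for Rsad2, hold only the response element core. Members with a promoter but neither motif, such as Oasl2 (5.09) and Irf7 (4.84), are not drawn. Members without a promoter entry, such as Rtp4 (6.01) and Usp18 (5.32), are also absent.

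The first group holds the transcription factors of the pathway. Irf7, the master regulator of type I interferon genes and itself an interferon target, had log2 levels of 7.97 in M1 and 6.69 in M2, against 12.33 in E2 and 7.49 in E1. It was 28.7-fold higher in E2 than in E1, and E2 was 4.36 log2 units above the next line. The ISGF3 subunit Irf9 was at 10.06 in M1 and 9.27 in M2, against 11.45 in E2 and 9.76 in E1, a 3.23-fold excess of E2 over E1. Stat2, which joins Irf9 in ISGF3, was 3.73-fold higher in E2, with 9.25 in M1 and 8.80 in M2, against 9.81 in E2 and 7.91 in E1. For Stat2, unlike Irf7, M1 lay close below E2 and E1 was lowest. Irf1, a factor that both interferon types induce and the gene shown above with a gamma-activated site, had 8.80 in M1 and 8.24 in M2, against 9.47 in E2 and 7.94 in E1. All 4 regulators were at least 2-fold higher in E2 than in E1.

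The next group belongs to the ISG15 system, in which the ubiquitin-like protein ISG15 is attached to other proteins. Usp18, the protease that removes ISG15 and also restrains signaling at the receptor, was at 9.27 in M1 and 7.17 in M2, against 12.82 in E2 and 7.50 in E1. It was 39.9-fold higher in E2 than in E1 and 4.31-fold higher in M1 than in M2. Herc6, the main ligase for ISG15 in the mouse, had 9.34 in M1 and 8.06 in M2, against 10.55 in E2 and 8.20 in E1. M1 thus held the second place for both genes, with M2 and E1 lower and close together. Trim25, a ligase that acts on the RNA sensor RIG-I, lay between 9.59 and 9.75 in the other 3 lines and at 10.91 in E2.

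The largest group, the antiviral effectors, held the genes with the widest E2 minus E1 differences, Trim30a and Rtp4. Its median difference of 2.47 lay between those of the regulators (1.79) and the guanylate-binding proteins (3.09). Of its 16 measured members, 14 were at least 2-fold higher in E2 than in E1. Trim30a, an interferon-inducible TRIM protein, was at 11.28 in M1 and 10.37 in M2, against 11.95 in E2 and 5.68 in E1. It had the largest E2 minus E1 difference of all probe sets with a symbol (77.2-fold). Here, however, E1 was the line that stood apart, with M1 nearest to E2 and M2 more than 2-fold below E2. Rtp4, a receptor transporter protein, ranked after Trim30a at 64.3-fold, with 8.29 in M1 and 6.81 in M2, against 11.24 in E2 and 5.23 in E1. The 4 lines were spread out for Rtp4, and no pair of neighbors in the order lay within 1 log2 unit.

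The IFIT proteins bind viral RNA and block its translation. Ifit1 had log2 levels of 8.70 in M1 and 6.58 in M2, against 10.90 in E2 and 6.15 in E1, and Ifit3, which forms complexes with it, had 8.48 in M1 and 6.10 in M2, against 11.61 in E2 and 7.34 in E1. Ifit1 was 26.8-fold and Ifit3 19.3-fold higher in E2 than in E1, and in M1 they were 4.35-fold and 5.19-fold above M2. Ifit2, the neighbor of Ifit3 on the chromosome, was at 9.56 in M1 and 8.31 in M2, against 9.81 in E2 and 8.94 in E1. Its 1.83-fold difference between E2 and E1 was among the smallest of the list, and M1 was 0.25 log2 units below E2.

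Viperin (Rsad2), which makes a chain-terminating nucleotide, was at 6.50 in M1 and 5.98 in M2, against 9.80 in E2 and 6.62 in E1. Its chromosomal neighbor Cmpk2, a nucleotide kinase, was at 7.02 in M1 and 6.01 in M2, against 9.75 in E2 and 7.26 in E1. Both were high in E2 alone, by 9.06-fold and 5.61-fold over E1, with M1 and E1 close together. The GTPase Mx1 had the same shape at low signal (5.87 in M1 and 5.72 in M2, against 8.01 in E2 and 5.94 in E1). Mx2 was also high in E2 alone at low signal (5.04 in M1 and 4.33 in M2, against 7.08 in E2 and 4.53 in E1). For Mx2, however, E1 lay nearer to M2 than to M1. Xaf1, a pro-apoptotic partner of XIAP, was 11.0-fold higher in E2 than in E1, with 8.13 in M1 and 7.32 in M2, against 10.38 in E2 and 6.92 in E1. Sp100, a nuclear body protein, was at 7.74 in E2 and between 5.63 and 5.94 in the other lines.

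A further set of effectors was graded, with M1 between E2 and the remaining lines. Bst2 (tetherin), which holds budding virus at the cell surface, was at 9.60 in M1 and 8.81 in M2, against 10.32 in E2 and 7.87 in E1. Samd9l, an antiproliferative factor, was at 9.46 in M1 and 8.10 in M2, against 10.06 in E2 and 7.89 in E1. For Lgals3bp, a secreted glycoprotein, the levels were 11.41 in M1 and 10.26 in M2, against 12.54 in E2 and 10.40 in E1. M1 was thus at least 2-fold above M2 for Samd9l and Lgals3bp. Ifitm3, which blocks fusion of virus in endosomes, was bright in every line (12.76 in M1 and 12.20 in M2, against 13.47 in E2 and 12.46 in E1), and its 2.01-fold difference lay just inside the 2-fold limit. Ifi35 was just outside this limit at 1.93-fold, with 10.58 in E2 and 9.63 in E1. It was not graded like the others, because M1 and M2 were both below E1.

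The oligoadenylate synthetases make the messenger that activates RNase L, which cuts RNA. Oas3 had log2 levels of 7.05 in M1 and 7.53 in M2, against 10.44 in E2 and 6.27 in E1, a 17.9-fold excess of E2 over E1. Oas2 was high in E2 alone, at 6.53 in M1 and 6.27 in M2, against 9.42 in E2 and 6.19 in E1. Oas1a was at 7.87 in M1 and 8.18 in M2, against 10.21 in E2 and 7.22 in E1, and its close copy Oas1b was at 8.16 in E2 and between 6.27 and 6.64 in the others. For Oas1a and Oas3, M2 was above M1. The oligoadenylate synthetase-like genes lie side by side and differed in their order of lines. Oasl2 was at 8.87 in M1 and 7.08 in M2, against 12.70 in E2 and 7.61 in E1, with M1 3.47-fold above M2. Oasl1, which in the mouse restrains Irf7 translation, was at 7.50 in M1 and 8.55 in M2, against 9.62 in E2 and 6.89 in E1, with M1 below M2 by 1.05 log2 units. Among the RNA enzymes outside this family, PKR (Eif2ak2) was 2.68-fold and the RNA editor Adar 1.88-fold higher in E2 than in E1.

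Among the sensors of foreign nucleic acid, 6 of 7 were at least 2-fold higher in E2 than in E1. Ddx60, a helicase linked to RIG-I, showed the clearest contrast, with 5.38 in M1 and 5.34 in M2, against 9.78 in E2 and 5.27 in E1. The 3 other lines lay within 0.12 log2 units of each other and at low signal, whereas E2 was 4.39 units above the next. Zbp1, the sensor of Z-form nucleic acid, had a like shape, at 6.92 in M1 and 6.58 in M2, against 10.29 in E2 and 6.95 in E1. Ifih1 (MDA5), a sensor of long RNA duplexes, was graded, with 8.95 in M1 and 7.26 in M2, against 10.83 in E2 and 8.02 in E1. Its relative Dhx58 (LGP2) was at 8.45 in M1 and 8.13 in M2, against 10.75 in E2 and 7.21 in E1. Ddx58 (RIG-I) was well expressed in all lines and 3.25-fold higher in E2 than in E1.

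The cytosolic DNA sensing pair behaved otherwise. cGAS (Mb21d1) was at 6.91 in M1 and 6.64 in M2, against 7.09 in E2 and 6.09 in E1, 2.01-fold higher in E2 than in E1 but only 0.18 log2 units above M1. STING (Tmem173), its partner, was the single member for which E2 was not highest, at 10.40 in M1 and 11.10 in M2, against 11.07 in E2 and 11.37 in E1. Its 4 values spanned 0.98 log2 units, the narrowest range of the list.

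The ADP-ribosyl transferases and their partner, and the guanylate-binding proteins, were also highest in E2. Parp14 was at 7.51 in M1 and 7.14 in M2, against 9.80 in E2 and 7.34 in E1. Parp12, which inhibits viral translation, was at 9.42 in M1 and 10.26 in M2, against 11.65 in E2 and 9.38 in E1, with M2 in second place. Parp9 and the ligase Dtx3l, which work as a complex and are neighbors on the chromosome, were 2.83-fold and 2.55-fold higher in E2 than in E1. Gbp3 was at 7.36 in M1 and 6.86 in M2, against 10.88 in E2 and 7.59 in E1, and Gbp7 was at 9.14 in M1 and 8.87 in M2, against 10.90 in E2 and 8.0 in E1. Both GTPases thus exceeded their E1 level more than 7-fold in E2. In all, 16 members lay in 7 groups of neighbors with at most 2 other coding genes between them, so the members are not independent of each other in position.

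The mesenchymal-like clones also differed from each other, by less. M1 was at least 2-fold higher than M2 for 12 of 44 members (3.22% of all probe sets) and at least 2-fold lower for 1, Oasl1 (2.64%), which fell inside the 2-fold limit when each array was centred on its median. The 12 were Irf7, Usp18, Herc6, Ifit1, Ifit2, Ifit3, Cmpk2, Samd9l, Rtp4, Lgals3bp, Oasl2 and Ifih1, and the largest differences were those of Ifit3 (2.38 log2 units), Ifit1 (2.12) and Usp18 (2.11). M1 was the higher of the pair for 37 members (49.1%), with a median of 0.51 log2 units (1.42-fold), beside -0.01 over all probe sets. By role, the median M1 minus M2 difference was 1.28 for the ISG15 system, 0.86 for the effectors and 0.67 for the regulators, and 0.27 for the RNA enzymes, 0.32 for the sensors and 0.26 for the PARP group. The E2 minus E1 medians by role ran from 1.79 for the regulators to 3.09 for the guanylate-binding proteins. The comparison of M1 with M2 shares no array with that of E2 with E1. Across the 44 members the differences had a Pearson r of 0.43 and a Spearman rho of 0.31, and across all probe sets r was 0.04, as a description over genes that are not independent replicates.

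**Figure D4:**
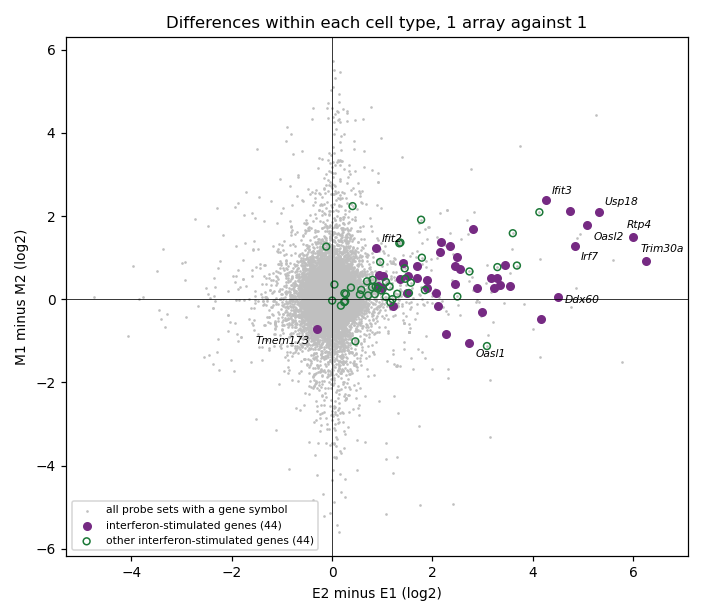
M1 minus M2 (vertical axis) plotted against E2 minus E1 (horizontal axis), both in log2 units from 1 array against 1, for 44 interferon-stimulated genes (filled), 44 other interferon-stimulated genes (open) and all probe sets with a symbol (gray). Members lie to the right of 0 except Tmem173, and 37 of them lie above 0.

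The order of the lines followed from these values. For 29 members E2 was highest and M1 next (6.23% of all probe sets), M2 was lowest for 23 (25.9%) and E1 for 19 (26.9%). M2 and E1 were close, with a median M2 minus E1 difference of -0.16. Against E1, M2 was at least 2-fold higher for 4 members, Trim30a, Rtp4, Oas3 and Oasl1 (5.48%), and at least 2-fold lower for 2, Ifit3 and Cmpk2 (5.14%). M1 was at least 2-fold higher than E1 for 14 members (5.91%).

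To ask whether the genes separated the cell types, the M lines were compared with the E lines by limma, a linear model that shares the estimate of spread across probe sets, with Benjamini-Hochberg adjustment over all of them. None of the 44 members was called at an adjusted p under 0.05, in either direction (0 of 44, beside 3.73% of all probe sets), and 0 passed at an unadjusted p under 0.05 (18.0%). The smallest adjusted p was that of Ifi35 (M minus E -0.996, SE 0.41, n = 2 against 2 lines, limma adjusted p = 0.337). Irf7 had a difference of -2.58 (SE 1.78, limma adjusted p = 0.582) and Trim30a of 2.01 (SE 2.26, limma adjusted p = 0.762), and the E lines themselves were far apart for both. Without E2 the Irf7 difference was -0.15 and without E1 -5.00, and that of Ifi35 was -0.52 without E2 and -1.47 without E1. M1 and M2 were both below E2 and E1 for 8 members, namely Mx1, Rsad2, Cmpk2, Ifi35, Zbp1, Parp9, Dtx3l and Gbp3 (23.8% of all probe sets), and both above for 0 (24.2%). The median M minus E difference of -0.81 turned to 0.18 without E2 and was -1.87 without E1. With 1 E line left, when the spread comes from the M pair alone, 6 members were higher in M lines at an unadjusted p under 0.05 without E2 (5.37% of all probe sets) and 29 were lower without E1 (5.37%), and in both cases 0 were called after adjustment.

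M1, the line that formed no tumor, was then set against the other 3 lines in the same model. Of the 44 members, 0 were called (0.0940% of all probe sets), and 1 passed at an unadjusted p under 0.05 (7.01%). This was Tmem173 (M1 minus the others -0.79, SE 0.18, limma adjusted p = 0.549), which was lowest in M1. Ddx60 had a difference of -1.41 (SE 2.28, limma adjusted p = 0.946), and of 0.083 without E2. The median of the members was -0.25, and without E2 it was 0.49. M1 is a single array that the model assumes to vary like the other lines. The spread in this comparison comes from E1, E2 and M2, and so includes the difference in cell type and medium between M2 and the E lines.

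The interferon genes and the receptor genes outside the list of members, which leaves aside Irf7, Stat2, Irf9 and the sensors described above, were less than 2-fold apart between the E clones. None of the 9 interferon ligands measured was 2-fold apart between E2 and E1 or between M1 and M2. Few probe sets of any kind were that far apart. In E2 against E1, 1.25% of all probe sets were higher and 0.987% lower, and in M1 against M2, 3.22% and 2.64%. A count of 0 in a short list, here or for the receptors below, is therefore not particular to its genes. Ifnb1 (IFN-beta) was at 5.19 in M1 and 4.94 in M2, against 5.39 in E2 and 5.19 in E1, and the median E2 minus E1 difference of the ligands was 0.07, with a range of -0.10 to 0.33. Several of these probe sets, Ifnb1 among them, gave low signal, at which a difference may not be detectable. A list of receptors, JAK kinases and STATs, which leaves out Stat2 as a member described above, had 10 of 11 genes measured, and 0 of these were 2-fold apart in either pair. The highest E2 minus E1 difference among them was 0.78, that of Stat3 (11.23 in M1 and 10.99 in M2, against 12.11 in E2 and 11.33 in E1). The lambda receptor Ifnlr1 was at 7.01 in M1 and 6.88 in M2, against 8.65 in E2 and 7.92 in E1.

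Among 11 measured adaptors, kinases and upstream factors, 2 passed the test of M against E lines (3.73% of all probe sets), and both were lower in M lines. The list as a whole was mixed, with a median M minus E difference of 0.23. M1 and M2 were both above E2 and E1 for 5 genes, Ikbke and Ticam1 among them (24.2% of all probe sets). They were both below for 3 (23.8%). Tlr3, the endosomal sensor of RNA duplexes, was at 9.40 in M1 and 9.10 in M2, against 11.73 in E2 and 11.67 in E1 (M minus E -2.45, SE 0.15, limma adjusted p = 0.00831). Irf8, a factor of immune and interferon genes, was at 7.23 in M1 and 7.57 in M2, against 9.60 in E2 and 10.12 in E1 (M minus E -2.45, SE 0.24, limma adjusted p = 0.0248). Neither separated E2 from E1, in contrast to the members above. With 1 E line left no probe set was called, and the differences were then -2.42 without E2 and -2.48 without E1 for Tlr3, and -2.71 without E2 and -2.19 without E1 for Irf8. Of 10 negative regulators 0 passed, which is not unusual beside 3.73% of all probe sets. Socs3, an inhibitor of cytokine signaling, was highest in M2 (8.86 in M1 and 9.76 in M2, against 8.53 in E2 and 7.98 in E1).

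**Figure D5:**
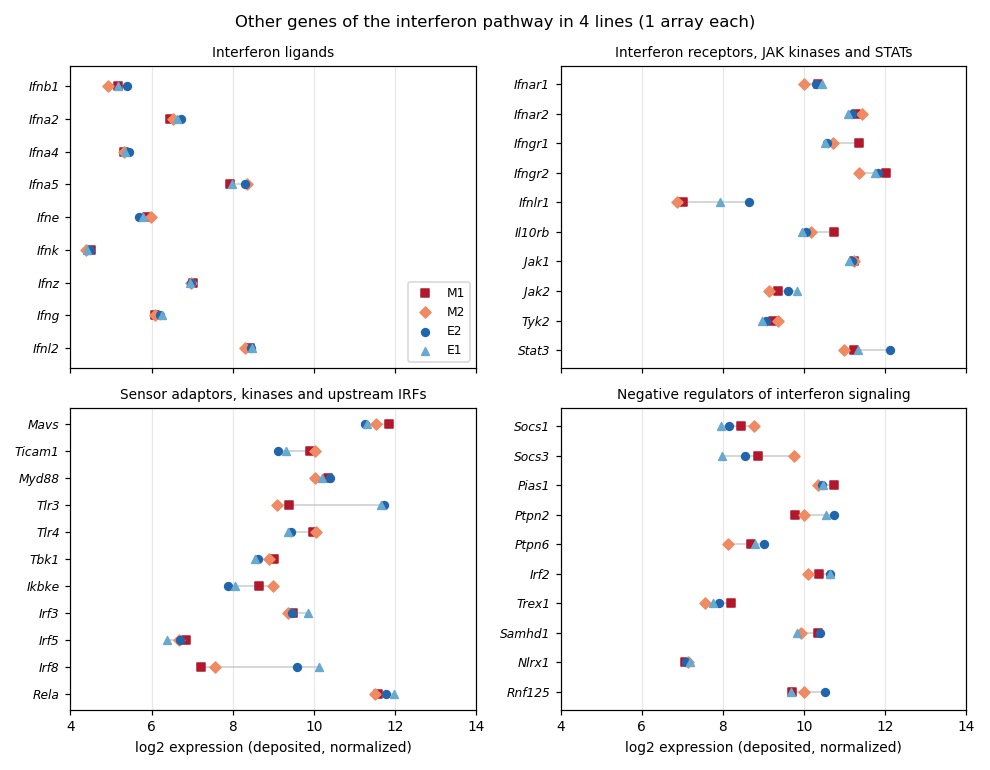
Log2 expression (horizontal axis, deposited normalized values) of interferon ligands, receptors with JAK kinases and STATs, sensor adaptors with upstream IRFs, and negative regulators in M1, M2, E2 and E1, 1 array each. The symbols of E2 and E1 lie close together for most genes, and Tlr3 and Irf8 separate the M lines from the E lines.

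Other interferon-stimulated genes, 44 measured of a further 52 listed, were shifted toward E2 by less than the members were. At least 2-fold higher in E2 than in E1 were 22 (1.25% of all probe sets), and 0 were at least 2-fold lower (0.987%). Their median difference was 1.03, beside 0.02 over all probe sets. The GTPase Iigp1 was high in E2 alone (5.77 in M1 and 4.96 in M2, against 9.45 in E2 and 5.76 in E1), and the chemokine Ccl5 was graded (9.84 in M1 and 7.75 in M2, against 11.50 in E2 and 7.37 in E1). Slfn2, a Schlafen family gene, was lowest in E1, with 10.42 in M1 and 8.83 in M2, against 10.49 in E2 and 6.88 in E1. The DNA sensor gene Aim2 was highest in M1, with 8.91 in M1 and 6.67 in M2, against 5.69 in E2 and 5.28 in E1. Of the 293 probe sets at least 2-fold higher in E2 than in E1, 40 (13.7%) were the members and 22 (7.51%) these other genes. Among the 20 probe sets with the largest E2 minus E1 difference, 9 were members, and among the 100 largest, 29 were.

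Immune cells express many of the same genes, so their markers were set beside the result. The mean log2 level of 11 immune markers was 6.87 in M1 and 6.71 in M2, against 6.78 in E2 and 6.70 in E1. The pan-leukocyte gene Ptprc was at 5.88 in M1 and 5.54 in M2, against 5.59 in E2 and 5.51 in E1, and the myeloid genes Itgam, Csf1r and Adgre1 were at like low levels in all lines. Of the 11 markers, 1 was at least 2-fold higher in E2 than in E1 (1.25% of all probe sets), Cd14 (by 1.80 log2 units). Another 1 was at least 2-fold lower (0.987%), Cd68 (-1.88). Irf8, described above, is also among the 11 and was called lower in M lines (M minus E -2.45, limma adjusted p = 0.0248). Between the M clones the macrophage gene Lyz2 was higher in M1 (8.91) than in M2 (6.57), with 5.65 in E2 and 5.08 in E1. Their part in the interferon genes was not tested. Siglech, the defining gene of plasmacytoid dendritic cells, was flat, at 6.33 in M1 and 6.57 in M2, against 6.55 in E2 and 6.30 in E1.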

How the data were processed

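RNA of 4 clonal mouse tumor lines (M1, M2, E2, E1) was hybridized to Affymetrix mouse gene arrays, 1 array per line. The authors deposited normalized log2 expression values for 35556 probe sets, made with Partek, of which the version and normalization method are not given in the sources used here. RNA was prepared with a column kit per the methods and with Trizol per the labels. Probe sets were named through the platform annotation, in which 23410 carry a symbol and 1621 of these carry several, and older symbols were matched through RefSeq synonyms. The members and gene lists were chosen with earlier results of these data known. Values were compared as deposited, with limma 3.58.1 in R 4.3.3 (lmFit and eBayes, 2 residual degrees of freedom) over all probe sets with a symbol, after the script was tested on simulated data. Differences between single lines are counted at 2-fold, without a test. With 4 arrays in all, precision is limited by their number. Genes named with all values were those at least 2-fold apart between any lines, the widest 30 first, and up to 3 more per role. Pathway genes named were those called, and up to 4 per list with the widest range. Lists of plasmacytoid, endothelial and fibroblast markers were also fixed, and their mean levels stand in the closing section. Lines that share a clone number did not deviate together (r = -0.04), so the number was not taken as a pairing. Alternatives covered scaling, dim probe sets, thresholds, the clone number as a block and leaving out each line.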

Additional observations from a re-analysis of the deposited data

How the results depend on the processing

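The counts of members at least 2-fold higher in E2 than in E1 (40), highest in E2 (43) and at least 2-fold above each other line (33) stayed within 1.5 times of these values under the scaling and dim-value alternatives run, which for the counts of 43 and 33 were chosen after seeing the data. No member was called in either limma comparison when a line was left out (0 to 0), and the replicate block by clone number also called 0 members in both. At an unadjusted p under 0.05, 1 member passed in the M1 comparison.

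Probe sets called between M and E lines (874) numbered 223 with dim values raised to the median, 319 with the clone number as a replicate block, 1660 at an adjusted p under 0.1 and 4203 unadjusted, and 0 to 1879 when a line was left out. For M1 against the others (22), they numbered 40 with arrays centred, 0 without dim probe sets, 293 with dim values raised, 0 with the replicate block, 11 with all probe sets tested, 62 with an intensity trend, 56 at an adjusted p under 0.1, 1640 unadjusted, and 0 to 1879 when a line was left out. Members higher in M1 than in M2 numbered 3 at 4-fold, and members lower numbered 0 with arrays centred, 3 at 1.5-fold and 0 at 4-fold.

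Directions turned with the line left out as follows, and why the lines differ was not tested. The median M minus E difference ran from -1.87 without E1 to 0.18 without E2. That of Trim30a ran from -1.13 without E1 to 5.14 without E2. In the M1 comparison the replicate block leaves M1 against E1 alone, because these lines share a clone number. The median was then 0.50, and Ddx60 was at 0.12. Over left-out lines the median ran from -0.71 without M2 to 0.49 without E2. Ddx60 ran from -2.17 without E1 to 0.083 without E2. With 1 array per line, no difference between single lines has an error.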

Other observations

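Marker lists of other cell types were read in the same arrays. The mean log2 level of 5 endothelial markers was 6.10 in M1 and 5.98 in M2, against 5.92 in E2 and 5.76 in E1. Of the 5, only Cdh5 was higher in M1 than in the others (difference 1.29, SE 0.35, limma adjusted p = 0.617). The other 4 were slightly lower in M1. For 7 fibroblast markers it was 7.35 in M1 and 7.01 in M2, against 6.71 in E2 and 6.55 in E1. Among these, Dcn was at 10.08 in M1 and 5.74 in M2, against 5.62 in E2 and 5.49 in E1, and was called in the M1 comparison (M1 minus the others 4.46, SE 0.16, limma adjusted p = 0.0476). Pdgfra was lower in M1 than in M2 (M1 minus M2 -1.48). The part of these genes in the M1 over M2 shift of the interferon-stimulated genes was not tested. For 5 plasmacytoid dendritic cell markers the mean was 7.93 in M1 and 7.72 in M2, against 8.0 in E2 and 7.35 in E1. Of these, Bst2 is itself an interferon-stimulated gene of the list. Spib had the largest M1 minus the others difference of the 5 (0.76, SE 0.11, limma adjusted p = 0.359), and for 2 the difference was below 0. The 44 interferon-stimulated genes had mean levels of 8.50 in M1 and 7.88 in M2, against 10.46 in E2 and 7.77 in E1.

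Some interferon-stimulated genes outside the list were set apart by E1 or by the M lines and not by E2. Slfn8 was at 8.95 in M1 and 8.88 in M2, against 8.83 in E2 and 6.33 in E1. Ifi205 was at 7.86 in M1 and 6.60 in M2, against 4.80 in E2 and 4.92 in E1. These genes did not pass limma in either comparison, and they were chosen after their values were seen.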
